A study of Mus musculus with 2 samples.

Results

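The genes described here encode the junction at which skeletal muscle turns an electrical signal into calcium release. They are the ryanodine receptors Ryr1 and Ryr3, the subunits Cacna1s, Cacnb1, Cacng1 and Cacna2d1 of the L-type calcium channel, the junctophilins Jph1 and Jph2, triadin (Trdn) and the adaptor Stac3. They were chosen by name, with earlier results of these data known, and measured by every probe that is not a control and that carries one of these 10 gene names or an alias of one. This gave 24 probes of 41174 on the array. All 10 genes had a probe with signal above background, among 13598 genes of the array that did, and 20 of the 24 probes passed.

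Gene expression was measured in gastrocnemius (GAS) muscle of male mice aged 15 weeks on a normal diet, on 2 two-colour arrays of 1 slide and 1 scan. Gde5 skKO mice (HSA-Cre;Gde5 flox/flox) lack exon 11 of Gde5 (Gpcpd1), which encodes a glycerophosphocholine-cleaving enzyme, where Cre is driven by the human α-skeletal actin promoter, so cells of the muscle other than fibres keep the gene. The controls are labelled wild-type (WT). In its contractile force, glucose and fasting experiments the study's controls were Gde5 flox/flox littermates, and the background is C57BL/6. Array 1 held WT RNA in Cy3 and Gde5 skKO RNA in Cy5, and array 2 had the dyes swapped. The labels name 5 mice of each genotype, but not whether RNA was pooled, whether both arrays held the same RNA, or whether the mice were fasted or given glucose. The paper describes transcriptome data after a glucose injection and with fasting. The 2 arrays may therefore differ in this state as well as in dye, and the labels do not tell.

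In a muscle fibre, tubules of the surface membrane meet the sarcoplasmic reticulum at triads. There the L-type channel senses the voltage of the tubule and is physically coupled to the ryanodine receptor, which opens and releases stored calcium onto the myofilaments. Junctophilins hold the membranes together, triadin ties the ryanodine receptor to calsequestrin inside the reticulum, and Stac3 binds the voltage sensor and is needed for the coupling. In fast muscle such as most of the GAS, Ryr1 is the main release channel, and Ryr3 is expressed at low level after birth.

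RefSeq windows upstream of a transcription start (GRCm38.p6) were at hand for 5 of the 10 genes, Ryr1, Cacna1s, Cacnb1, Cacna2d1 and Jph2, with 7 windows in all. The windows printed are those of Cacnb1, the triad gene called higher by the rule given after the sequences, of Jph2, which has the triad probe called lower, and of Cacna1s, whose ratios lay close to 0. Each is the 250 bases before the start, read 5′ to 3′ on the strand of the gene. Capitals mark the E-box CANNTG, the motif that myogenic factors such as MyoD bind, which reads the same on both strands. The 2 Cacnb1 windows belong to starts 4255 bases apart, on the minus strand at chr11:98022628-98022877 and chr11:98018373-98018622. The Jph2 window lies on the minus strand at chr2:163397994-163398243, and a second start 20 bases away is not printed. The Cacna1s window lies on the plus strand at chr1:136052561-136052810.
Cacnb1, upstream start: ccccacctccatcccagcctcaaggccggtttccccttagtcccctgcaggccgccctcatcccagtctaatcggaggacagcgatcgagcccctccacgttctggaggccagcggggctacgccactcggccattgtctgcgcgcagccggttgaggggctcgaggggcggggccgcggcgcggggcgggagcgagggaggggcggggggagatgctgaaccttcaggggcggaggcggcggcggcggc
Cacnb1, downstream start: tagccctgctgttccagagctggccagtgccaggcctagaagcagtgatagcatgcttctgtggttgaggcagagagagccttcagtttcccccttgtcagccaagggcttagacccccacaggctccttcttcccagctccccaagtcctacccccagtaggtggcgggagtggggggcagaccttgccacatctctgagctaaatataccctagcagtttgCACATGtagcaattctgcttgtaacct
Jph2: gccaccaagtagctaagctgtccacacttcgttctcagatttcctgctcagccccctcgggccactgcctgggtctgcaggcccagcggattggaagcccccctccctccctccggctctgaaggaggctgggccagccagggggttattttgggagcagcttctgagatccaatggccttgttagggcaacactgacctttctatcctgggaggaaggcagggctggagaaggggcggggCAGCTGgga
Cacna1s: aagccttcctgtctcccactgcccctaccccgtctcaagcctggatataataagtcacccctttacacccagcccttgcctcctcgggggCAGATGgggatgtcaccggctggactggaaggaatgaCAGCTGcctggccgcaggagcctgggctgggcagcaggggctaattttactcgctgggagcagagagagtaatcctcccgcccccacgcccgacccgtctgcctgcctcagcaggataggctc

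The upstream Cacnb1 window held no E-box and 73.2% G and C, and the downstream one held 1 E-box and 56.0% G and C. The Jph2 window held 1 E-box and the Cacna1s window 2, while the windows of Ryr1 and Cacna2d1 held none. Over all 32851 such windows in the table, 66.2% held at least 1 E-box. The MEF2 box and the CArG box, both bound by muscle transcription factors and searched by their consensus, which also reads the same on both strands, were in none of the 7 windows. They were in 0.508% and 1.47% of all windows. The array probes do not tell the Cacnb1 starts apart as far as the sources used here show.

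Each probe gives a log2 ratio of Gde5 skKO over WT on each array, with an error and a p-value from the error model of Agilent Feature Extraction. A gene or probe was called higher or lower where both arrays gave a p-value under 0.05 and ratios of the same sign, and the brightest probe stands for its gene. These p-values rest on the noise of spots within an array and hold no spread between mice, and with 2 arrays the precision is low. Of the 13598 genes, 1.58% were called higher and 1.73% lower by this rule. A further 217 genes passed the threshold on both arrays with opposite signs, the direction of a dye effect or of another difference between the arrays. The median over all genes was 0.01 on array 1 and 0.02 on array 2. Of the 4 Gde5 probes, 3 were called lower, by 7.61-fold to 9.05-fold, at chr2:132221088-132225598 (mm8). The remaining one, at chr2:132256048-132256107, had ratios of -0.05 and -0.47. It was the brightest by mean log signal and so stands for the gene, and Gde5 as a gene was therefore not called lower by this rule. The place of these Gde5 probes relative to exon 11 was not determined, and the dimmest of the 3 had a mean log2 ratio of -3.18, against -1.45 with limma. Skeletal muscle markers were bright on both arrays: Acta1, skeletal α-actin, read from 83299 to 105479 units of processed signal in the 4 channels.

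Of the 10 triad genes, 1 was called higher and none was called lower. Cacnb1, the β1 subunit that brings the channel to the tubule and is needed for coupling, was 1.51-fold higher in Gde5 skKO muscle. Stac3, Jph2 and Jph1 had the lowest mean log2 ratios, from -0.43 to -0.36, and each passed the threshold on 1 array only. The release channel Ryr1 and the voltage sensor Cacna1s had means of -0.04 and -0.06. In all, 7 of the 10 genes had ratios below 0 on both arrays and 2 had ratios above 0 on both, beside 25.3% and 29.2% of all genes. This count depends on the normalization. With limma ratios 3 of the 10 genes, Ryr1, Cacna1s and Trdn, had opposite signs on the arrays, and Ryr3 was below 0 on both. The median of the mean log2 ratios was -0.12 for the 10 genes and 0.01 for all genes. Among the 20 probes that passed, 13 were below 0 on both arrays, 1 was called higher and 1 lower, beside 1.49% and 1.58% of all probes that passed. Both Gde5 skKO signals lay above both WT signals for 1 of the 10 genes, Cacnb1, beside 21.0% of all genes, and below them for 5, Stac3, Jph1, Jph2, Cacna2d1 and Cacna1s, beside 17.8% of all genes, so a separation of the 4 readings was common on these arrays.

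**Figure D1:**
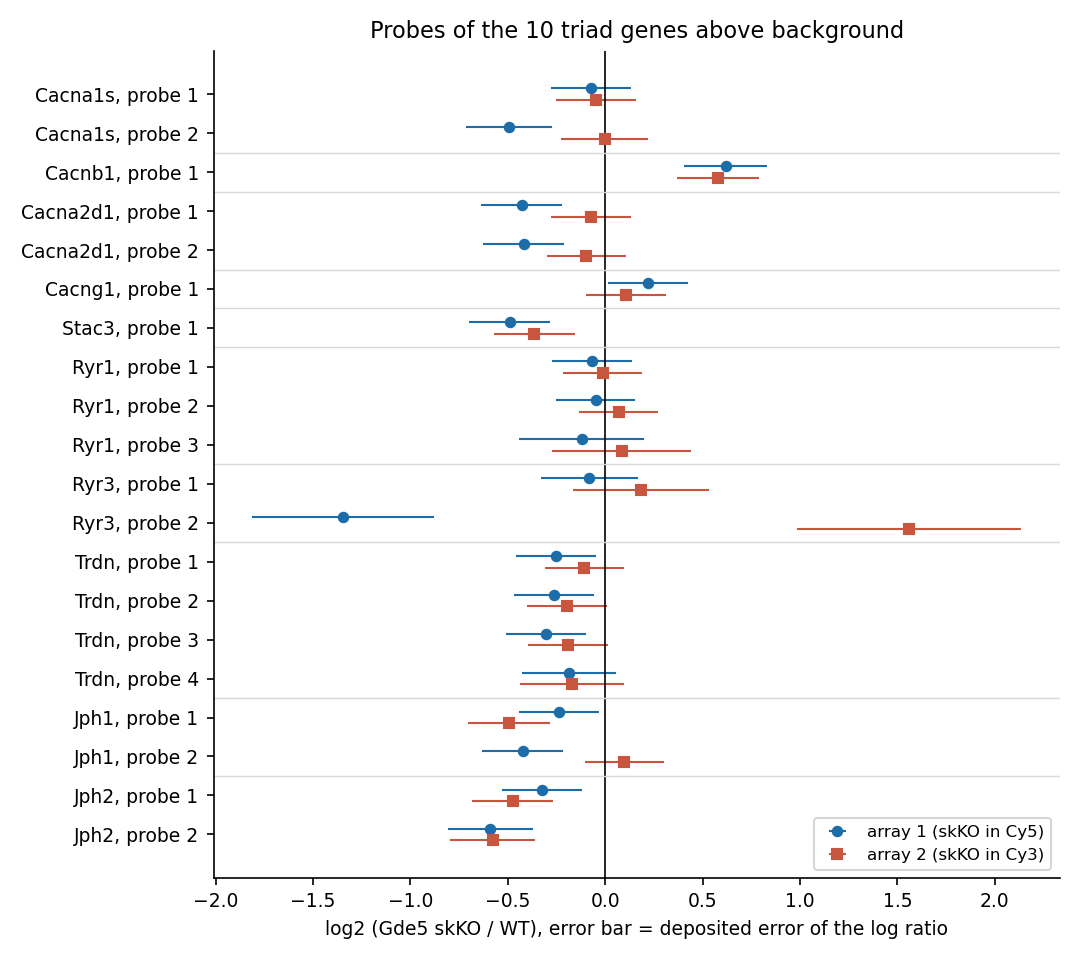
Log2 ratio of Gde5 skKO over WT (horizontal axis) of the 20 probes of the 10 triad genes that were above background, 1 row a probe, with blue circles for array 1, red squares for array 2 and bars for the deposited error of each log ratio. The Cacnb1 probe sits above 0 on both arrays and the second Jph2 probe below 0 on both, while the second Ryr3 probe changes sign between the arrays.

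Among the subunits of the L-type channel, Cacnb1 was the one called. Its only probe, on the minus strand at chr11:97821355-97821787 (mm8), spans 433 bases for 60 bases of probe and therefore crosses at least 1 intron. On array 1 it read 2612 units of processed signal in Gde5 skKO and 1702 in WT, and on array 2 it read 2568 and 1721. Both Gde5 skKO readings were above both WT readings. The log2 ratio was 0.62 ± 0.21 on array 1 and 0.58 ± 0.21 on array 2 (± the Feature Extraction error), with p-values of 0.0035 and 0.0062. Of all genes tested, 98.0% had a lower mean ratio. Since 1 probe reads the gene, no second probe checks the value.

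Cacna1s encodes the α1 subunit that forms the pore and senses the voltage. Its brighter probe, at chr1:137935854-137935913 (mm8, plus strand), read 103786 in Gde5 skKO and 109099 in WT on array 1, and 102315 and 105758 on array 2. The log2 ratios were -0.07 ± 0.20 and -0.05 ± 0.20. The interval of 1.96 errors ran from -0.47 to 0.33 on array 1 and from -0.45 to 0.35 on array 2. The Cacnb1 intervals, from 0.20 to 1.03 on array 1 and from 0.16 to 0.99 on array 2, overlapped these. The genes were not tested against each other. The Gde5 skKO readings were below the WT readings, by less than the error of the ratios. The dimmer probe, at chr1:137915100-137917068, read -0.49 ± 0.22 on array 1 and 0.00 ± 0.22 on array 2. It passed the threshold on array 1 and not on array 2, and the brighter probe on neither.

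Cacna2d1 encodes the α2δ1 subunit, which lies outside the membrane and helps bring the channel to the surface. Its probe at chr5:15882556-15882615 (mm8, plus strand) read 6602 in Gde5 skKO and 8881 in WT on array 1, and 8781 and 9232 on array 2. The log2 ratios were -0.43 ± 0.21 and -0.07 ± 0.20, a gap of 0.36 between arrays and the widest among the 10 genes. The Gde5 skKO readings were below the WT readings, narrowly on array 2. The second probe, at chr5:15870764-15870823, read -0.42 ± 0.21 and -0.10 ± 0.20. Both probes therefore passed the threshold on array 1 and missed it on array 2, and Cacna2d1 was not called.

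Cacng1, the γ1 subunit found with the muscle L-type channel, had 1 probe at chr11:107519872-107519931 (mm8, minus strand). It read 5311 in Gde5 skKO and 4557 in WT on array 1, and 5899 and 5480 on array 2. The readings of the genotypes overlapped. The log2 ratios of 0.22 ± 0.21 and 0.11 ± 0.20 did not pass the threshold on either array. Cacng1 and Cacnb1 were the 2 genes above 0 on both arrays.

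Stac3, the adaptor of the voltage sensor, had the lowest mean of the 10 genes. Its probe at chr10:126911692-126911751 (mm8, plus strand) read 27026 in Gde5 skKO and 37971 in WT on array 1, and 27010 and 34757 on array 2. Both Gde5 skKO readings were below both WT readings. The log2 ratio was -0.49 ± 0.21 on array 1 and -0.36 ± 0.21 on array 2, and the p-value was 0.019 on array 1 and 0.078 on array 2. Of all genes tested, 3.95% had a lower mean. With loess normalization in limma the ratios were -0.82 and -0.06 and their mean -0.44, so the value on each array moved with the normalization and the mean over the dye swap did not.

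**Figure D2:**
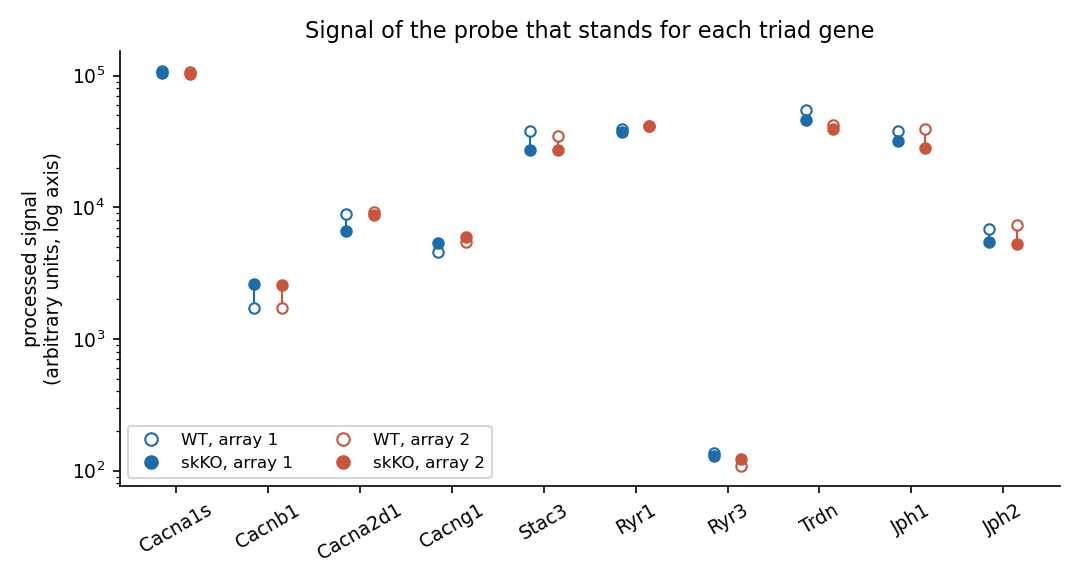
Processed signal (arbitrary units, log axis) of the probe that stands for each triad gene, with open circles for WT, filled circles for Gde5 skKO, blue for array 1 and red for array 2, and lines joining the channels of an array. Filled circles lie above open ones for Cacnb1 and Cacng1 on both arrays. They lie below them on both arrays for Stac3, Jph1, Jph2, Trdn and Cacna2d1, and narrowly for Ryr1 and Cacna1s. Heights of different genes are not comparable.

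Ryr1, the release channel of the reticulum, was read by 3 probes on the minus strand of chromosome 7. The brightest, at chr7:28712530-28713228 (mm8), read 37549 in Gde5 skKO and 39385 in WT on array 1, and 41313 and 41709 on array 2, with overlap between the genotypes. Its log2 ratios were -0.07 ± 0.20 and -0.01 ± 0.20. The second bright probe, at chr7:28713559-28714265, read -0.05 and 0.07, and the dim one, at chr7:28731374-28731433, read -0.12 and 0.08. None passed the threshold on either array. The interval of 1.96 errors for the brightest probe ran from -0.47 to 0.33 and from -0.41 to 0.39.

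Ryr3 was near the limit of detection. Of its 6 probes, 2 passed the filter. The probe at chr2:112432613-112432672 (mm8, minus strand) read 129 in Gde5 skKO and 137 in WT on array 1, and 123 and 108 on array 2, for log2 ratios of -0.08 ± 0.25 and 0.18 ± 0.35. The groups overlapped, and Ryr3 was the only one of the 10 genes whose ratios had opposite signs on the arrays. The other probe that passed, at chr2:112437400-112437459, read -1.35 ± 0.47 on array 1 and 1.56 ± 0.57 on array 2. On each array it was well above background only in the Cy3 channel, at 64.9 units for WT on array 1 and 63.8 units for Gde5 skKO on array 2. The sign of this probe thus differed between the arrays, at readings near background. With limma its ratios were -0.12 and 0.26, and an effect of dye was not tested. Of the 4 probes that did not pass, the one at chr2:112447923-112449174 read -2.10 on array 2, where only the WT channel was above background, and 0.00 on array 1, where neither channel was.

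Triadin was read by 4 probes on the plus strand of chromosome 10, and all 4 were below 0 on both arrays by Feature Extraction. The brightest, at chr10:32828640-32828699 (mm8), read 46042 in Gde5 skKO and 54890 in WT on array 1, and 39259 and 42303 on array 2, with overlap between the genotypes. Its log2 ratios were -0.25 ± 0.21 and -0.11 ± 0.20. The probe at chr10:32889591-32889650 read -0.26 and -0.20, that at chr10:33165588-33165647 read -0.31 and -0.19, and the dim one at chr10:33154010-33157589 read -0.18 and -0.17. With limma the brightest probe read -0.60 and 0.18, and that at chr10:33165588-33165647 read -0.52 and 0.01. The other Trdn probes stayed below 0 on both arrays with limma. No Trdn probe passed the threshold on either array, and the probes of a gene on an array share the RNA and are not replicates.

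The junctophilins had lower readings in Gde5 skKO muscle by most of their probes. Jph1, the main junctophilin of skeletal muscle, was read at chr1:16980337-16980396 (mm8, minus strand) at 32067 in Gde5 skKO and 37752 in WT on array 1, and at 27949 and 39366 on array 2, both Gde5 skKO readings below both WT readings. Its log2 ratios were -0.24 ± 0.21 and -0.49 ± 0.21, and only array 2 passed the threshold. The second Jph1 probe, at chr1:16982695-16982754, read -0.42 ± 0.21 on array 1 and 0.10 ± 0.20 on array 2. The Jph1 probes thus ordered the arrays in opposite ways.

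Jph2, the junctophilin that heart muscle also uses, was read at chr2:163028325-163028384 (mm8, minus strand) at 5441 in Gde5 skKO and 6822 in WT on array 1, and at 5247 and 7293 on array 2. Both Gde5 skKO readings were below both WT readings. The log2 ratios were -0.33 ± 0.21 and -0.47 ± 0.21, and only array 2 passed the threshold. The dimmer probe, at chr2:163029231-163029290, read 248 in Gde5 skKO and 373 in WT on array 1, and 273 and 408 on array 2. Its log2 ratios were -0.59 ± 0.22 and -0.58 ± 0.22, and it was the triad probe called lower on both arrays. With normexp background correction and loess in limma the mean was -0.38 for the brighter and -0.34 for the dimmer probe.

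Other tests gave more calls below 0 among the triad genes. By limma's moderated test on loess-normalized ratios, the unadjusted p-value was under 0.05 for Cacnb1 above 0 and for Jph1, Jph2 and Stac3 below 0, beside 4.22% of all genes above and 4.25% below 0. After Benjamini-Hochberg adjustment over all genes none of the 10 passed, with limma adjusted p-values of 0.073 for Cacnb1, 0.25 for Jph2, 0.34 for Jph1 and 0.49 for Stac3. The methods' t-test is the Student's t-test that the paper names for comparing groups, though not for its arrays. It was run on the channel values and did not pair the channels of an array. Its unadjusted p-values were under the threshold for Cacnb1 above 0 and for Jph1 and Jph2 below 0. The shares of all genes were 3.49% above and 3.24% below 0, and none of the 10 passed after adjustment. Cacnb1 also failed when the Feature Extraction p-values were adjusted over all genes within each array. The limma test and the t-test take their spread from the arrays. Whether the arrays share RNA is not known, so that spread may hold none between mice.

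**Figure D3:**
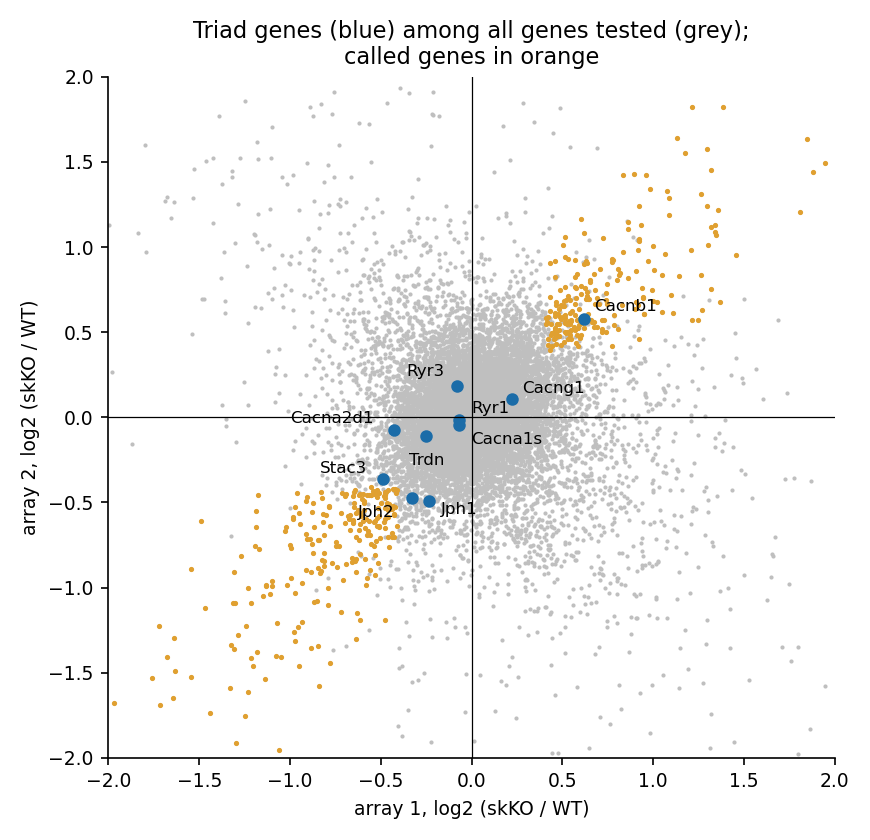
Log2 ratio of Gde5 skKO over WT on array 1 (horizontal axis) against array 2 (vertical axis), with all genes tested in grey, called genes in orange and the 10 triad genes in blue. The axes leave out 103 genes beyond 2 on either array, and Cacnb1 is the only triad gene among the called ones.

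The rest of the triad and its calcium handling was followed in lists written from general knowledge. Of 38 other triad and junctional reticulum genes, 31 were measured, with 1 called higher and 1 lower by Feature Extraction, 2 higher and 4 lower by limma unadjusted, and a median of 0.04. The gene called higher by Feature Extraction was Casq2, the calsequestrin of slow and heart muscle that stores calcium in the reticulum. Casq2 read 700 in Gde5 skKO and 470 in WT on array 1 and 754 and 446 on array 2. Its log2 ratios were 0.58 and 0.76, and its limma mean was 0.48. Casq1, the calsequestrin of fast muscle, read 0.05 and 0.15 and was not called.

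The gene called lower by Feature Extraction was Itpr1, an inositol trisphosphate receptor and so a release channel of a family apart from the ryanodine receptors. Itpr1 read 1164 in Gde5 skKO and 3164 in WT on array 1 and 1050 and 3493 on array 2. Its brighter probe had log2 ratios of -1.44 ± 0.24 and -1.73 ± 0.26, and its second probe -1.35 and -1.15, also called lower. The mean of -1.59 was a 3.01-fold lower signal, larger than that of any of the 10 triad genes. Itpr2 and Itpr3 had means of -0.09 and -0.16 and were not called.

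Of 22 other voltage-gated calcium channel subunits, 10 were measured and none was called by Feature Extraction on both arrays or by limma at an unadjusted p-value under 0.05. Cacnb3 and Cacnb4, the other β subunits that passed the filter, were not well above background in every channel, and no Cacnb2 probe passed. Cacnb4 had log2 ratios of 1.31 and 0.69 and a limma mean of 0.14. Those of Cacnb3 were 0.70 and -0.35, and neither gene was called. Of the calcium pump genes, their regulators and the buffer parvalbumin (Pvalb), 5 of 6 were measured and 1 was called higher by Feature Extraction, with 1 higher and 1 lower by limma unadjusted. The gene called was Sln, sarcolipin, a small inhibitor of the calcium pump of the reticulum, with 3498 units in Gde5 skKO and 1748 in WT on array 1 and 2621 and 1631 on array 2. The log2 ratios of Sln were 1.00 ± 0.22 and 0.68 ± 0.21. A second Sln probe did not pass the filter. The pump Atp2a1 of fast muscle read 0.07 and 0.27 and was not called.

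**Figure D4:**
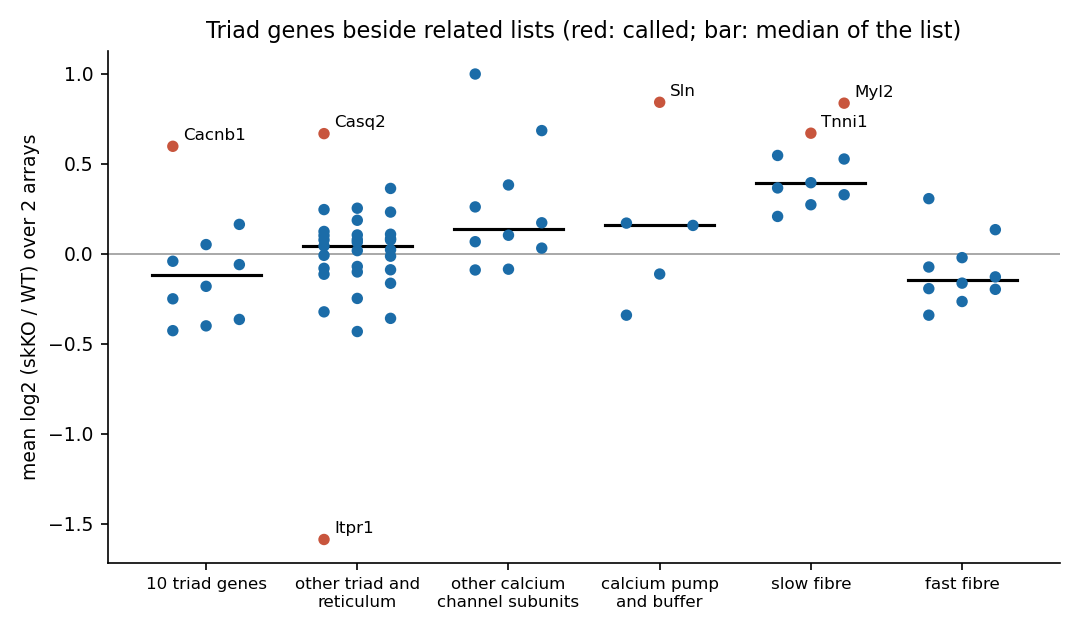
Mean log2 ratio of Gde5 skKO over WT over the 2 arrays (vertical axis) for the 10 triad genes and for the measured genes of 5 related lists, each point a gene, red where called on both arrays, with a bar at the median of the list. Medians run from -0.15 in the fast fibre list to 0.40 in the slow fibre list, and -0.12 for the triad genes.

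Fibre type markers were read on the same arrays. Of 9 slow fibre genes, 8 were above 0 on both arrays, the median was 0.40 and 2 were called higher by Feature Extraction, with 6 higher by limma unadjusted. Those called were Myl2, the slow myosin light chain, with 0.80 and 0.87, and Tnni1, slow troponin I, with 0.64 and 0.70. Myh7, the slow myosin heavy chain, read 0.30 and 0.36 and was not called by Feature Extraction. By qPCR the paper found fibre type mRNA comparable between Gde5 skKO and WT mice. Of 10 fast fibre genes, none was called by Feature Extraction, with 1 higher and 1 lower by limma unadjusted, 7 were below 0 on both arrays and the median was -0.15. The summed signal of the slow list was 153719 and 155423 in Gde5 skKO and 109874 and 111956 in WT, and that of the fast list was 658724 and 604152 against 676880 and 659369. The part of fibre composition in the triad ratios was not tested. In whole muscle, fewer fibres of a type and less RNA per fibre cannot be told apart.

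Markers of other tissues were read beside these. Of 6 adipocyte markers, 5 were measured and 4 were called lower, by limma unadjusted as well, Adipoq, Cfd, Retn and Plin1, named after their values were seen, with log2 ratios from -1.03 (Adipoq) to -0.57 (Plin1) on single arrays. With limma, Retn and Plin1 had means of -0.34 and -0.33. The summed adipocyte signal, most of it from Fabp4 at a mean of 0.05, was 42765 and 40516 in Gde5 skKO and 42869 and 44210 in WT. Of 6 heart muscle markers, 4 were measured and 1, Myh6, was called higher with 0.59 and 0.48, with 2 higher by limma unadjusted. A second Myh6 probe read 0.56 and 0.31 and was not called. Nppa and Myl7 were not well above background, and the summed heart signal was 3459 and 3417 in Gde5 skKO against 2374 and 2483 in WT. Smooth muscle markers were measured for 6 of 6 with no call by Feature Extraction, with 2 higher by limma unadjusted, and summed to 34696 and 35316 against 28182 and 29288. Neuron markers were measured for 1 of 6 and liver markers for 2 of 6, summing to 219 and 211 against 208 and 225, and to 151 and 240 against 286 and 211. Their part in the triad ratios was not tested.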

How the data were processed

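GAS muscle was measured on 2 dye-swapped Agilent whole mouse genome arrays. The authors processed the scans in Feature Extraction 9.5.3.1. The deposited log10 ratio of each spot, Cy5 over Cy3, and its error follow background subtraction, detrending and dye normalization. The deposited p-value of each spot comes from the error model, and the deposited intensity is that of a spot or its background. The series table holds rounded log10 ratios.

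Here ratios were put on the log2 scale as Gde5 skKO over WT, with spots of a probe averaged. Control spots, spots with outlier marks (164 on array 1, 200 on array 2) and spots whose local background exceeded 1.5 times their signal (11 and 0) were left out, and no triad spot was among them. Gene names came from RefSeq, for 24375 probes through the accession, 6301 through the symbol and 2426 through a synonym, and 8072 kept the name on the array. Probe coordinates are those of the array annotation (mm8), and exon or UTR was not determined. A probe passed if any channel was well above background on array 1 and on array 2. Such spots made up 53.2% and 45.6% in the Gde5 skKO and WT channels of array 1 and 44.6% and 47.4% in those of array 2. The genes named by rule are the 10 members, Gde5, and called genes of the fibre, triad and calcium lists, and other list genes were named after their values were seen. The members and lists were chosen with earlier results of these data known. Alternatives used limma 3.58.1 (normexp with an offset of 50, loess, Aquantile, moderated test) in R 4.3.3. Other steps used pandas 2.3.3, numpy 2.4.6 and matplotlib 3.10.9 under Python 3.11.15. The call code was also run on simulated ratios drawn from the deposited errors. These held no dye effect and no spread between mice, so that run cannot show how the calls fare under either.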

Additional observations from a re-analysis of the deposited data

How the results depend on the processing

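Cacnb1 was called higher with limma ratios, without background correction, with the series table, after centring, with all probes, with other filters, at a p-value under 0.01, at a mean fold of at least 1.5, by both unadjusted tests and on each array alone. Settings that changed the ratios kept the Feature Extraction p-values, so only a change of sign could undo the call. Cacnb1 has 1 probe, well above background in every channel, so all probes and other filters could not change it. A call on both arrays also fixes the call on each array alone. The count of triad genes called higher was 0 after adjustment within each array, by limma's adjusted test and by the methods' t-test after adjustment. The count called lower was 1 with all probes (Jph2), 3 by limma's unadjusted test, 2 by the methods' t-test unadjusted, and 2 on each array alone, Jph1 and Jph2 on array 2 and Cacna2d1 and Stac3 on array 1, against none with both arrays. Over all genes, 107 were higher and 127 lower at a p-value under 0.01, 50 and 76 after adjustment within each array, 142 higher at a mean fold of at least 1.5, 574 and 578 by limma's test unadjusted and 33 and 65 adjusted, 474 and 441 by the methods' t-test unadjusted and 0 and 0 adjusted. On single arrays, 928 to 974 genes were higher and 724 to 914 lower. The median of the triad genes ran from -0.16 to -0.06 on single arrays and was -0.18 with all probes. Of the 10 genes, Ryr3 alone changed sign among the 10 alternatives that give a ratio, with limma ratios at -0.09 and on array 1 alone at -0.08. No further paired analysis was possible because each ratio already sets the genotypes against each other within an array, and whether the arrays share RNA is not known. Array ratios of limma had opposite signs on the arrays for 3 triad genes, Ryr1, Cacna1s and Trdn, while the means of all 10 moved by at most 0.14. Signal over background limits Ryr3.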
